A study of Mus musculus with 6 samples.

Results

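CXC chemokines are small secreted proteins that guide leukocytes along a concentration gradient. The 10 genes described here, Cxcl1, Cxcl2, Cxcl3, Cxcl9, Cxcl10, Cxcl11, Cxcl12, Cxcl13, Cxcl14 and Cxcl16, were taken by name from a table of gene expression in sorted graft macrophages. All 10 were found among the 22180 named genes of the array, each on 1 probe set with a single gene symbol. They were listed with earlier results of these data known.

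The family falls into groups by receptor. Cxcl1, Cxcl2 and Cxcl3 carry the ELR motif of glutamate, leucine and arginine, bind Cxcr2 and draw neutrophils, and macrophages make them after signals through NF-kB. Cxcl9, Cxcl10 and Cxcl11 bind Cxcr3 on activated T cells and NK cells, are induced by interferon-gamma, and are a known feature of rejecting allografts. Cxcl12 (receptors Cxcr4 and Ackr3), Cxcl13 (receptor Cxcr5 on B cells and follicular helper T cells), Cxcl14, and the membrane-bound Cxcl16 (receptor Cxcr6 on T cells and NK cells, and a scavenger receptor in its own right) each follow rules of their own.

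BALB/c hearts had been placed in fully mismatched C57BL/6 mice, and macrophages inside the grafts were collected by flow sorting on day 6. Recipients of 3 samples had been given 5 mg/kg of mTORi-HDL, high-density lipoprotein particles loaded with an inhibitor of the kinase mTOR, on days 0, 2 and 5. Recipients of the other 3 samples had no treatment and rejected their hearts. All 6 samples thus came from an allograft, no group received empty lipoprotein, and the labels give no age, no sort markers and no statement on pooling of animals, so that the spread between arrays may be partly technical. The sorted cells carried macrophage transcripts, with Lyz2 at 10.80 to 11.62 and Cd68 at 8.78 to 10.87 on the log2 scale over the 6 arrays. Not all of the 12 pan-macrophage markers were so even. Csf1r read 5.00 on the first treated array (mTORi-HDL 1) and 7.54 to 9.08 on the others. C1qc, in contrast, read 6.69 on that array and 5.65 to 6.56 on the others. They also carried transcripts of T cells, with the T cell receptor chain Cd3d at 11.31 to 11.45 on untreated and 8.37 to 10.62 on treated arrays.

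Levels are log2 values as the authors deposited them, so that a difference of 1 is a doubling. The median probe set read 3.85 to 4.22 on the 6 arrays. Different probe sets differ in brightness, and levels are therefore compared between arrays of the same gene and not between genes. The array mTORi-HDL 1 stood apart. It correlated with the other arrays at r = 0.708 to 0.741 over 41345 probe sets, while r among the remaining 5 was 0.892 or more. Its values had a slope of 0.641 on the mean of the other 5, so it read bright genes low and dim genes high. Results for the 10 members are therefore given with and without it.

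Most CXC chemokine genes read higher in the sorted graft samples of treated recipients. The group mean was higher in 9 of 10 members, and the exception was Cxcl12. Among all 22180 named genes it was higher in 12901. In Cxcl1, Cxcl9, Cxcl10 and Cxcl13 each of the 3 treated arrays lay above each of the 3 untreated arrays, and in 0 members did all treated arrays lie below. Groups separated in this way, upward, in 5.37% of the 22180 genes and downward in 5.53%. The median difference over the 10 members was 0.95 on the log2 scale, against 0.08 over all named genes. No member passed limma's test over all genes (smallest adjusted p = 0.740, for Cxcl13), and 0 of 22180 genes did (0%). An unadjusted p under 0.05 was found in 6 members, all higher (Cxcl1, Cxcl2, Cxcl3, Cxcl9, Cxcl10 and Cxcl13), where 1.57% of all genes were so called as higher and 3.07% as lower.

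Without mTORi-HDL 1 the mean was higher in 10 of 10 members and their median difference was 1.05. Among all 22180 named genes the mean was then higher in 10333, with a median difference of -0.03. Then 6 members again had an unadjusted p under 0.05, but Cxcl11 and Cxcl16 took the places of Cxcl2 and Cxcl3. Of all genes 3.47% were called as higher and 3.51% as lower by that measure, and 0 passed adjustment (0%). The groups did not overlap in 6 members, all higher, against 9.75% of all genes upward and 12.5% downward. The count at an unadjusted p under 0.05 rested on single arrays: it was 1, Cxcl13, without untreated 1 and likewise without untreated 3, and 3 without mTORi-HDL 3. Over all genes that count was 1029 with all arrays, 706 without untreated 1, 615 without untreated 3 and 1406 without mTORi-HDL 3. After each array was centred on its median, only Cxcl10 and Cxcl13 kept groups that did not overlap. That centring moved the median difference over all genes from 0.08 to -0.03.

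**Figure D1:**
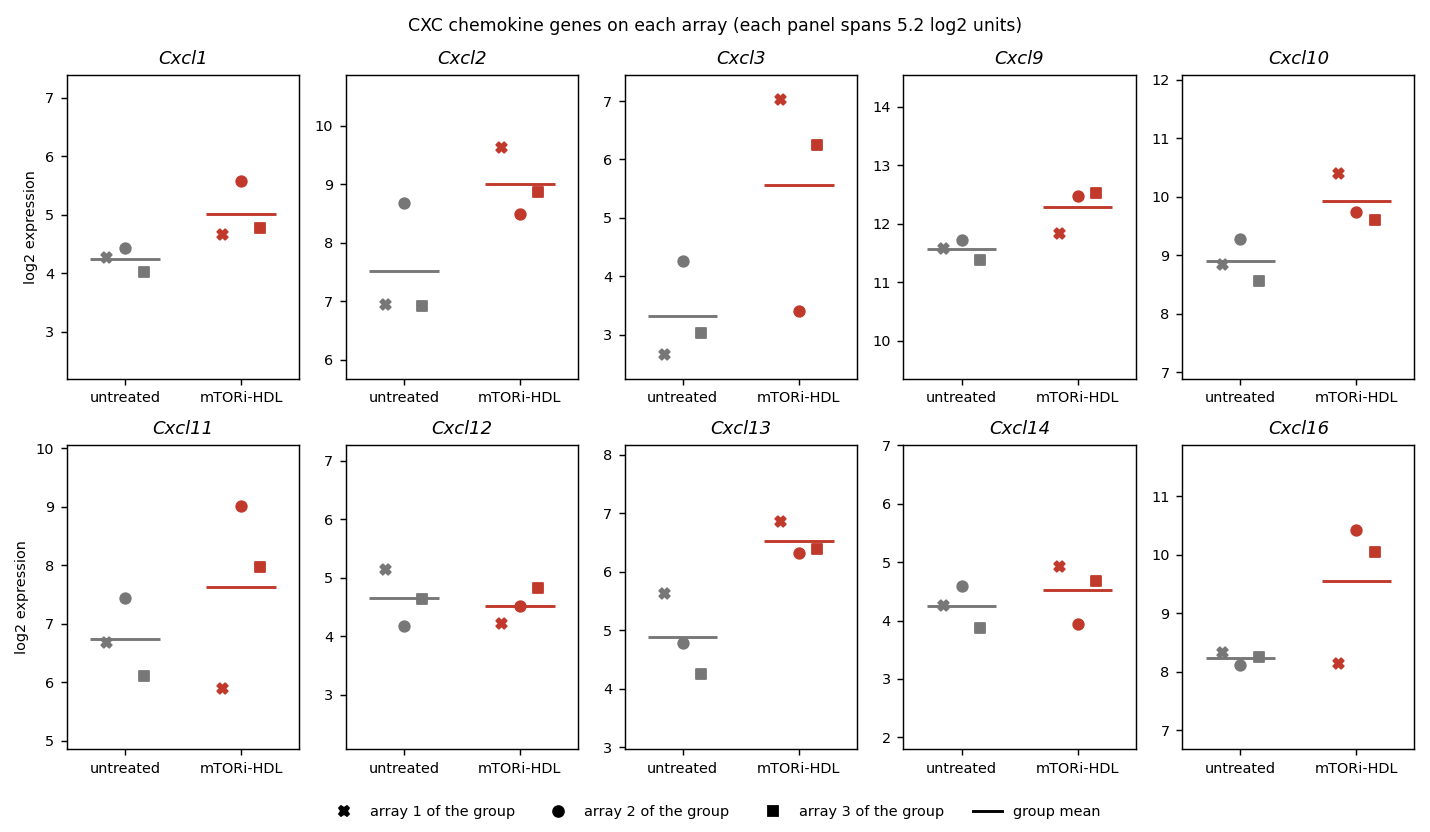
Log2 expression of the 10 CXC chemokine genes on each of 3 untreated (grey) and 3 mTORi-HDL arrays (red). Symbols give the array number and lines the group mean. All panels have the same height in log2 units but start at different levels. The groups separate in Cxcl1, Cxcl9, Cxcl10 and Cxcl13, and mTORi-HDL 1 (red cross) lies among the untreated arrays or below them in Cxcl11 and Cxcl16.

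The neutrophil-attracting members Cxcl1, Cxcl2 and Cxcl3 lie in a single cluster on chromosome 5, where Cxcl1 and Cxcl2 are direct neighbours. Their promoters are shown because all 3 share an 11-base run that fits the NF-kB consensus. The 120 bases before each start come from RefSeq (GRCm38.p6), at chr5:90891125-90891244, plus strand, chr5:90903779-90903898, plus strand and chr5:90785981-90786100, plus strand. Capitals mark the shared run GGGAATTTCCC.
Cxcl1: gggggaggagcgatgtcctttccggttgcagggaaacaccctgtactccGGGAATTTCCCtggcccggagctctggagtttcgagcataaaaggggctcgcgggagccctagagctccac
Cxcl2: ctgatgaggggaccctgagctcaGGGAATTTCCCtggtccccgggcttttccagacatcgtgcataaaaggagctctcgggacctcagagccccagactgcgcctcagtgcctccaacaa
Cxcl3: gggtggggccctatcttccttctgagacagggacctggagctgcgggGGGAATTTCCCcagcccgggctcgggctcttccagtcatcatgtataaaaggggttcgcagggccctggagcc

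The run begins 71 bases before the start in Cxcl1, 97 in Cxcl2 and 73 in Cxcl3. It was picked as the longest run of letters that these 3 promoters share. In the 250 bases before the start, on either strand, it was found in 14 of 32851 promoters of the table (0.0426%). These 3 are among the 14, and a run picked in this way gives no test of how unusual the sharing is. The NF-kB consensus, searched by its name on both strands, overlaps this run and was found in 7.25% of those promoters. Of the 10 members 8 had a promoter in the table (not Cxcl11 and Cxcl16), and 4 of these, Cxcl1, Cxcl2, Cxcl3 and Cxcl10, held the consensus. A match describes letters only, and binding was not measured.

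Cxcl1, a chief neutrophil attractant of mice, read 4.67, 5.57 and 4.78 on the treated arrays 1 to 3 and 4.29, 4.43 and 4.03 on the untreated arrays. The groups did not overlap, but the gap between the lowest treated and the highest untreated array was only 0.24. After each array was centred on its median the groups overlapped. The levels were also low, since the median probe set of an array read 3.85 to 4.22. Its difference was 0.76 ± 0.33 (SE; limma, unadjusted p = 0.0497, adjusted p = 0.890), and 0.93 ± 0.30 without mTORi-HDL 1 (adjusted p = 0.549).

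Cxcl2, made early by activated macrophages, read 9.64, 8.50 and 8.87 on treated and 6.95, 8.68 and 6.92 on untreated arrays. The groups overlapped because untreated 2 lay above treated 2. The difference of the means was 1.48 ± 0.54 (SE; limma, adjusted p = 0.890), or 2.80-fold. Without mTORi-HDL 1 it was 1.17 ± 0.55 (adjusted p = 0.758).

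Cxcl3, the third ligand of Cxcr2, spread most widely of the 10 members within the treated group. It read 7.03, 3.41 and 6.25 on treated and 2.68, 4.27 and 3.04 on untreated arrays. Treated 2 lay within the untreated range, and untreated 2 was again the highest of its group. The difference was 2.24 ± 0.91 (SE; limma, adjusted p = 0.890), with a 95% interval of 0.11 to 4.37, and the interval without mTORi-HDL 1 was -0.52 to 3.52 (adjusted p = 0.821). Untreated 1, untreated 3 and treated 2 read it below their own median probe set, so the size of the difference is uncertain.

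Neutrophil transcripts differed between arrays of the same group as well. S100a8 is a calprotectin chain abundant in neutrophils and also made by monocytes. It read 7.86, 6.35 and 8.92 on treated and 7.02, 9.57 and 7.68 on untreated arrays, lowest on treated 2 and highest on untreated 2. S100a9, the other calprotectin chain, read 5.28, 6.04 and 5.79 on treated and 4.81, 8.66 and 5.40 on untreated arrays. S100a9 was also highest on untreated 2, but treated 2 was the highest of its group. The 10 neutrophil markers had a mean level of 5.13, 4.19 and 4.40 on treated and 3.99, 5.06 and 4.09 on untreated arrays. Of the 10 markers 7 had a higher and 3 a lower mean in treated samples, and 0 had an unadjusted p under 0.05. Without mTORi-HDL 1 the split turned to 3 higher and 7 lower, and 1, the cytokine receptor Csf3r, was at that level (0.73 ± 0.25, SE; limma, adjusted p = 0.588). The defining marker Ly6g read 2.97 to 3.71 on the 6 arrays, below the median probe set of each array. The part of neutrophil RNA in the Cxcl2 and Cxcl3 values was not tested.

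The T cell-attracting members Cxcl9, Cxcl10 and Cxcl11 also lie together on chromosome 5, with Art3 between Cxcl9 and Cxcl10. RefSeq's C57BL/6J reference lists Cxcl11 as a transcribed pseudogene; recipients were C57BL/6, with no substrain given, and donors BALB/c. The Cxcl10 promoter is shown because it holds both an NF-kB and an interferon-type match. Its 240 bases before the start are chr5:92348890-92349129, minus strand (RefSeq, GRCm38.p6). Capitals mark, from left to right, GAAANNGAAA, the letters of an interferon-stimulated response element, and 2 stretches that fit the NF-kB consensus.
Cxcl10: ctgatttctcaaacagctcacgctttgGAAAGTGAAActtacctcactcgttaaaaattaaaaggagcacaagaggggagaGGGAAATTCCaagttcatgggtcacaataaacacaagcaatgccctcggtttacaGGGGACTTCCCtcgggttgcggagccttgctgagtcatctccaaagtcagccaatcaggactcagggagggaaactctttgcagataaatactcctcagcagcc

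The interferon-type match begins 213 bases before the start, and the NF-kB stretches begin 159 and 104 bases before it. GAAANNGAAA occurred in 2.98% of the 32851 promoters on either strand, and among the members also in Cxcl14, 172 bases before its start. Neither GAAANNGAAA nor the NF-kB consensus was in the 250 bases before the start of Cxcl9.

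Cxcl9, an interferon-gamma target that draws effector T cells, was bright on every array. It read 11.85, 12.48 and 12.52 on treated and 11.59, 11.72 and 11.38 on untreated arrays. All treated arrays were higher, and mTORi-HDL 1 only by 0.13 over the highest untreated array. The difference was 0.72 ± 0.29 (SE; limma, adjusted p = 0.890) and, without mTORi-HDL 1, 0.94 ± 0.22 (adjusted p = 0.378), or 1.92-fold.

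Cxcl10, which both type I interferon and interferon-gamma induce, read 10.41, 9.74 and 9.60 on treated and 8.85, 9.28 and 8.56 on untreated arrays. Each treated array was higher, mTORi-HDL 1 most of all, although bright genes in general read low on it. The difference was 1.02 ± 0.34 (SE; limma, unadjusted p = 0.0175, adjusted p = 0.890), or 2.03-fold, and 0.77 ± 0.27 without mTORi-HDL 1 (adjusted p = 0.611).

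Cxcl11 read 5.90, 9.01 and 7.97 on treated and 6.68, 7.43 and 6.10 on untreated arrays. The treated group held both the highest and the lowest value. Over all arrays the difference was 0.89 ± 0.76 (SE; limma, adjusted p = 0.890), with an interval of -0.89 to 2.67. Without mTORi-HDL 1 both remaining treated arrays lay above all untreated ones, and the difference was 1.75 ± 0.47 (unadjusted p = 0.00775, adjusted p = 0.442).

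**Figure D2:**
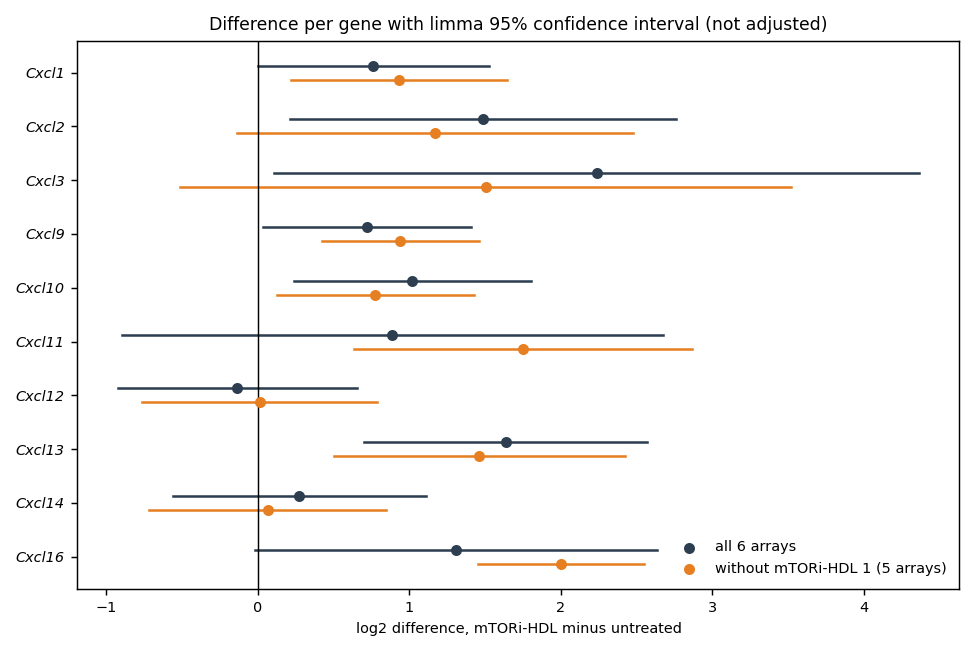
Difference in log2 expression between mTORi-HDL and untreated samples for each CXC chemokine gene, with limma's 95% confidence interval, over all 6 arrays (dark) and without mTORi-HDL 1 (orange). The intervals of Cxcl13, Cxcl10, Cxcl9 and Cxcl1 lie above 0 in both, those of Cxcl12 and Cxcl14 span 0 in both, and Cxcl16 is estimated most precisely without mTORi-HDL 1 among the members with a difference over 1. Intervals are not adjusted for the number of genes.

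Cxcl13, the B cell attractant of lymphoid follicles, had the smallest p of the 10 members over all arrays. It read 6.87, 6.31 and 6.39 on treated and 5.64, 4.77 and 4.26 on untreated arrays. The treated arrays lay close together and all above the untreated ones, with a gap of 0.67. Treated samples averaged 6.53 ± 0.30 and untreated samples 4.89 ± 0.70 (SD, n = 3 each). The difference was 1.64 ± 0.40 (SE; limma, unadjusted p = 0.00404, adjusted p = 0.740), or 3.11-fold, and 1.46 ± 0.40 without mTORi-HDL 1 (adjusted p = 0.451).

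Cxcl16, at once a membrane-bound chemokine and a scavenger receptor of oxidised lipoprotein and phosphatidylserine, was tight in untreated samples (8.35, 8.13 and 8.25). On treated arrays it read 8.16, 10.43 and 10.05, so that arrays 2 and 3 stood 2.19 and 1.81 above the untreated mean and mTORi-HDL 1 stood among the untreated arrays. The difference was 1.31 ± 0.57 over all arrays (SE; limma, adjusted p = 0.890). Without mTORi-HDL 1 it was 2.00 ± 0.23 (unadjusted p = 6.70e-05, adjusted p = 0.121), the smallest p of the 10 members in that comparison.

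Cxcl12, made mainly by stromal cells, read 4.22, 4.52 and 4.81 on treated and 5.15, 4.18 and 4.63 on untreated arrays. The groups overlapped throughout, and the difference was -0.14 ± 0.34 (SE; limma, adjusted p = 0.940), with an interval of -0.93 to 0.65, and 0.01 ± 0.32 without mTORi-HDL 1. Fibroblast and mural cell markers, in contrast, had a mean level of 5.26 to 5.48 on treated and 4.20 to 4.41 on untreated arrays. Of these 10 markers 9 were higher, and 4 were so at an unadjusted p under 0.05, against 1.57% of all genes. Cxcl14, a chemokine of epithelia and connective tissue, read 4.94, 3.94 and 4.68 on treated and 4.27, 4.60 and 3.87 on untreated arrays. These also overlapped (difference 0.27 ± 0.36, SE; limma, adjusted p = 0.898; 0.07 ± 0.33 without mTORi-HDL 1). All values of Cxcl12 and Cxcl14 lay between 3.87 and 5.15, where the median probe set of an array read 3.85 to 4.22.

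Of 5 further CXC ligands, Cxcl5, Ppbp, Pf4, Cxcl15 and Cxcl17, 0 had an unadjusted p under 0.05. The mean was higher in 5 of 5 over all arrays and in 1 of 5 without mTORi-HDL 1. Pf4, the platelet factor, read 8.45 on mTORi-HDL 1 and 4.77 to 5.96 on the other 5 arrays. The mean level of platelet markers was also highest on that array (4.66 against 4.11 to 4.26), but the markers were split. Itga2b and Treml1 were highest there, while Gp9 and Gp6 were not. That array read dim genes high in general, and the part of platelet RNA in its Pf4 value was not tested.

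Among the 8 receptors the lymphocyte receptors Cxcr3 and Cxcr6 went the opposite way to their ligands. Cxcr6, the receptor of Cxcl16, read 4.65, 6.62 and 5.69 on treated and 8.32, 8.75 and 8.10 on untreated arrays. The groups were far apart, and the difference was -2.73 ± 0.50 (SE; limma, unadjusted p = 0.00076, adjusted p = 0.482), or -2.23 ± 0.35 without mTORi-HDL 1 (adjusted p = 0.172). Cxcr3, the receptor of Cxcl9, Cxcl10 and Cxcl11, read 5.44, 6.83 and 6.61 on treated and 8.69, 8.36 and 7.85 on untreated arrays. It was lower on every treated array, with a difference of -2.01 ± 0.43 (SE; limma, unadjusted p = 0.00204, adjusted p = 0.696) and of -1.58 ± 0.30 without mTORi-HDL 1 (adjusted p = 0.253).

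These receptors moved with T cell transcripts. Treated samples had lower means in all 12 T cell markers measured, with an unadjusted p under 0.05 in 9, against 3.07% of all genes called as lower. The mean level of these markers was 6.67, 8.33 and 8.43 on treated against 9.32, 9.52 and 9.26 on untreated arrays. The part of T cell RNA in the Cxcr3 and Cxcr6 values was not tested, and fewer T cells in the sorted sample cannot be told apart from less of these RNAs per cell. Pan-macrophage markers had a mean level of 6.92, 8.19 and 8.87 on treated and 7.40, 7.46 and 6.86 on untreated arrays. Of 12 such markers 10 were higher, with an unadjusted p under 0.05 in 4, against 1.57% of all genes called as higher. Without mTORi-HDL 1 all 12 were higher and 8 at that level, against 3.47% of all genes. Whether the ligands' higher levels went with a larger share of macrophages was not tested. Of the other marker lists, the mean was higher in 1 of 7 NK cell, 0 of 4 B cell, 5 of 7 dendritic cell, 8 of 9 endothelial and 7 of 8 cardiomyocyte genes. Without mTORi-HDL 1 these counts were 2, 0, 5, 5 and 5. Among all 22180 named genes the mean was higher in 12901, and in 10333 without mTORi-HDL 1.

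**Figure D3:**
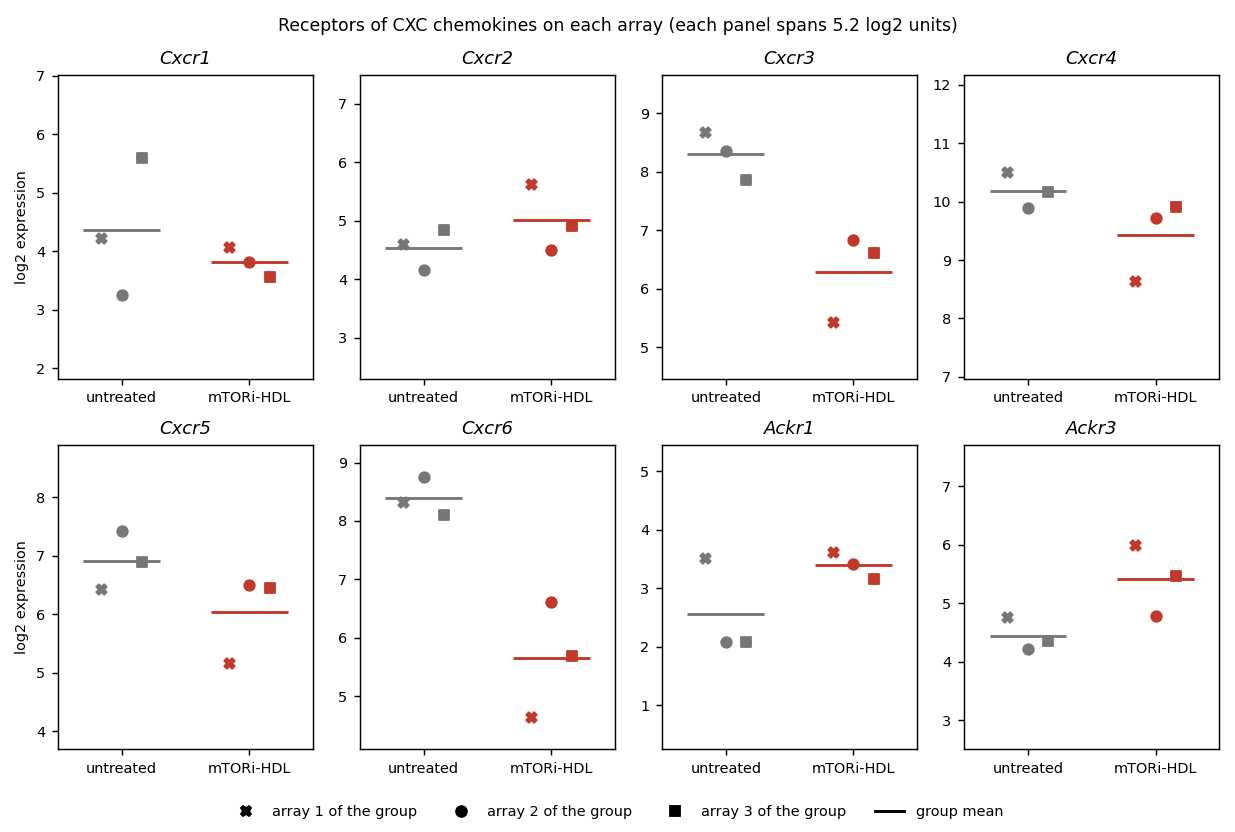
Log2 expression of the 8 receptors of CXC chemokines on each untreated (grey) and mTORi-HDL array (red), with the group mean as a line. Panels have the same height in log2 units and different starting levels. Cxcr3 and Cxcr6 lie lower on all 3 treated arrays, and Ackr3 lies above the untreated arrays by a gap of 0.03.

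The differences of the other 6 receptors were smaller in size. Ackr3, which scavenges Cxcl12 and Cxcl11, read 6.00, 4.79 and 5.47 on treated and 4.76, 4.22 and 4.35 on untreated arrays, with a gap of only 0.03 between the groups. Its difference was 0.98 ± 0.37 (SE; limma, unadjusted p = 0.0308, adjusted p = 0.890), and 0.69 ± 0.30 without mTORi-HDL 1. Cxcr2, the neutrophil receptor of Cxcl1, Cxcl2 and Cxcl3, read 5.63, 4.49 and 4.91 against 4.60, 4.16 and 4.83, and the groups overlapped. The differences of Cxcr4 and Cxcr5, receptors of Cxcl12 and Cxcl13, were -0.76 ± 0.39 and -0.87 ± 0.45 (SE), each with overlapping groups, and -0.38 and -0.44 without mTORi-HDL 1. Cxcr1, a relative of Cxcr2, and Ackr1, a non-signalling receptor of inflammatory chemokines, had differences of -0.54 ± 0.56 and 0.84 ± 0.43 and overlapped as well.

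**Figure D4:**
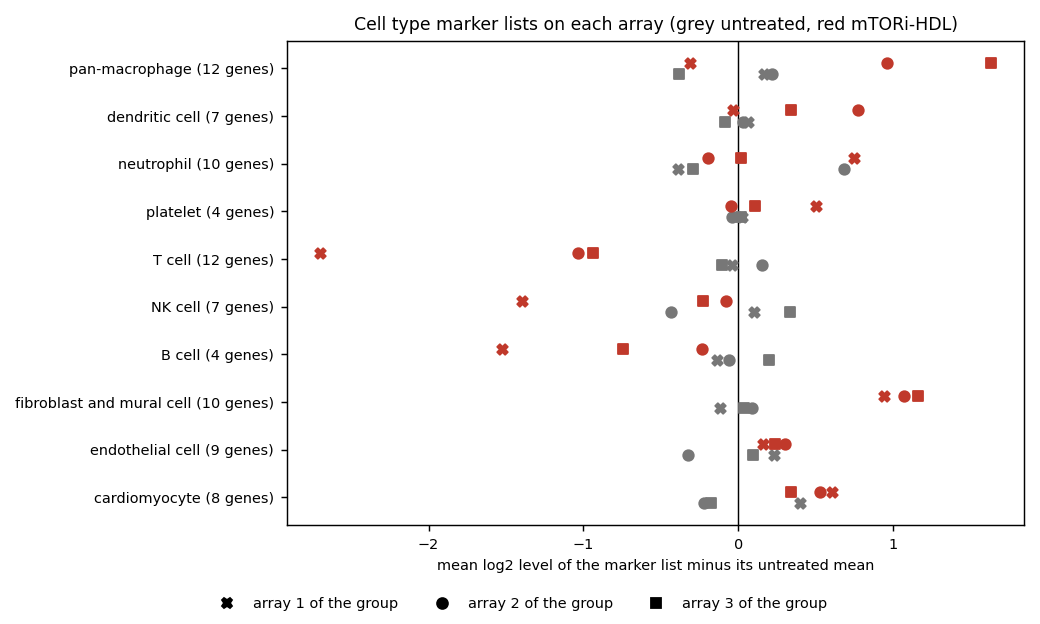
Mean log2 level of each cell type marker list on each array, after subtraction of its untreated mean, for untreated (grey) and mTORi-HDL arrays (red). The T cell list lies lower on all treated arrays, the fibroblast and mural cell list lies higher on all of them, and the macrophage list lies higher on treated arrays 2 and 3 but not on mTORi-HDL 1.

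Genes that signal to these chemokines were split in direction. Of 11 measured genes of the interferon-gamma route to Cxcl9, Cxcl10 and Cxcl11, 4 were higher and 7 lower, and 0 had an unadjusted p under 0.05. Ifng, the cytokine itself, read 9.29, 9.98 and 9.53 on untreated arrays and 6.2, 9.25 and 8.83 on treated arrays, all of them lower. The highest treated value, 9.25, lay only just below the lowest untreated one, 9.29. Groups separated downward in 5.53% of all genes. The Ifng difference was -1.50 ± 0.75 (SE; limma, unadjusted p = 0.0841). It shrank to -0.55 ± 0.29 (unadjusted p = 0.0955) once mTORi-HDL 1, which read bright genes low, was dropped. Without mTORi-HDL 1 the split turned to 7 higher and 4 lower, and 2 genes of the list were at an unadjusted p under 0.05, both of them higher. They were Irf1, a transcription factor that interferon-gamma induces (difference 0.96 ± 0.32, SE), and Ifngr2, a chain of its receptor (0.89 ± 0.22). Their adjusted p values in limma's test were 0.574 and 0.408.

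Of 14 measured genes of the NF-kB, IL-1, TNF and IL-17 route to Cxcl1, Cxcl2 and Cxcl3, 4 were higher and 10 lower over all arrays. The 1 gene at an unadjusted p under 0.05 was Il17a, a cytokine that induces Cxcl1 in many cell types. It read 5.17, 3.63 and 5.10 on treated and 3.21, 3.36 and 3.23 on untreated arrays, with a difference of 1.37 ± 0.44 (SE; limma, adjusted p = 0.890) and of 1.10 ± 0.42 without mTORi-HDL 1. All untreated arrays and treated 2 read Il17a below their own median probe set, so the size of the difference is uncertain. On treated 2, Cxcl3 and Il17a were the lowest of the treated group, but Cxcl1 was the highest (5.57). A link between Il17a and these chemokines was not tested. Without mTORi-HDL 1 the list had 8 higher and 6 lower genes, and 3 were at an unadjusted p under 0.05. Beside Il17a these were Il1b, interleukin-1 beta (0.93 ± 0.34, SE), and Zfp36, whose protein destabilises cytokine mRNAs (0.52 ± 0.21). Nfkb1 was not analysed here.

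Proteases and lymphotoxin genes gave few differences. Of 6 proteases that cut CXC chemokines, 3 were higher and 3 lower (5 and 1 without mTORi-HDL 1), and only Mmp12, which inactivates ELR chemokines, was at an unadjusted p under 0.05. It read 7.11, 7.54 and 8.15 on treated and 4.87, 5.07 and 5.61 on untreated arrays (difference 2.42 ± 0.36, SE; limma, adjusted p = 0.468; 2.66 ± 0.32 without mTORi-HDL 1). Adam10 and Adam17, which release Cxcl16 from the membrane, had differences of -1.0 and -0.46, and of 0.02 and 0.53 without mTORi-HDL 1, so their direction turned with that array. In the lymphotoxin route to Cxcl13, 3 of 6 genes were higher (4 without mTORi-HDL 1) and 0 were at an unadjusted p under 0.05. Without mTORi-HDL 1 this held for Relb, an NF-kB subunit of that route, alone (0.81 ± 0.30, SE; limma, adjusted p = 0.627).

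Patterns over the 6 arrays were also compared with those of 11090 genes of at least median level, by the mean absolute difference of log2 values after each gene's own mean was subtracted. Nearest to Cxcl13 were Batf3, Guca1a and Mcee, at 0.17, 0.23 and 0.26. Batf3, a transcription factor, read 7.93, 7.33 and 7.24 on treated and 6.21, 6.04 and 5.29 on untreated arrays. Nearest to Cxcl16 were Slc7a8, an amino acid transporter, Gatm, an enzyme of creatine synthesis, and the chemokine receptor Xcr1, at 0.15, 0.17 and 0.18. Batf3 and Xcr1 are also on the dendritic cell marker list, where Itgae was lower on every treated array (difference -1.11 ± 0.44, SE; limma, adjusted p = 0.890). Nearest to Cxcl9 were Lamp2, a lysosomal membrane protein, Ern1 and Gm6042, at 0.09 to 0.11, and nearest to Cxcl2 were Phyh, Sirpb1c and Nlrc4, at 0.32, 0.34 and 0.35. The closest gene to Cxcl3, Tnfsf13b, the B cell survival factor BAFF, was 0.55 away, followed by Slpi at 0.68 and Gm2427 at 0.69. Cxcl10 had Mrps33, Rpf1 and Mt1 nearest (0.12 to 0.14), and Cxcl1 had Sdccag8, Hint2 and Gm8672 (0.11 to 0.13). Nearest to Cxcl11 were Diaph2, Anxa4 and 6330407A03Rik, at 0.23 to 0.25. Cxcl12 had Pop1, Mfsd13a and Pdlim7 (0.09 to 0.10), and Cxcl14 had Zbtb21, Nt5dc2 and Rpl11 (0.03 to 0.08). With 6 arrays and 11090 genes such neighbours describe these arrays only.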

How the data were processed

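The 6 samples, 3 from treated and 3 from untreated recipients, were hybridised to 1 array each after amplification of 15 ng of RNA, per the labels. The authors deposited log2 expression values, for which the submitters' processing notes name RMA and Affymetrix Expression Console. Versions, genome build and probe-set filters are not given in the sources used here. Of 41345 probe sets 23521 had 1 gene symbol, and the brightest stood for a gene, which left 22180 genes. No filter or further scaling was applied. The comparison used lmFit and eBayes of limma 3.58.1 (R 4.3.3) with a single term for treatment, two-sided, with Benjamini-Hochberg adjustment over all genes, and the test was tried on simulated data. Named were the 10 members, receptors, pathway-list genes at an unadjusted p under 0.05 and the nearest 3 genes in pattern. Ifng, Adam10, Adam17, Pf4, S100a8, S100a9, Ly6g, Csf3r, Itgae, Itga2b, Treml1, Gp9, Gp6, Lyz2, Cd68, Csf1r, C1qc and Cd3d were named after their values were seen. Members and lists were chosen with earlier results of these data known. Promoter sequences and gene order are from RefSeq (GRCm38.p6). Of 149 list entries 6 were not analysed here. There is no read depth on arrays, so their number sets the precision.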

Additional observations from a re-analysis of the deposited data

How the results depend on the processing

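With 16 alternative settings (array scaling, a filter on dim genes, variance models, array weights, probe-set choice, a replicate block, and arrays left out) 0 of 10 members passed an adjusted p of 0.05, and the smallest was 0.0946, for Cxcl16 with array weights. At an unadjusted p under 0.05 in limma's test, 6 members were called with all arrays as deposited, where 4.64% of all genes were. That count moved with the setting. It was 8 with array weights (7.97% of all genes) and 3 after median centring (4.78%). It was 1 without untreated 1 (3.18%) and 1 without untreated 3 (2.77%). Apart from Cxcl12, every member was higher in treated samples under all 16 settings. Cxcl12 had a difference of 0.26 without mTORi-HDL 1 in the fit with a replicate block, and of -0.37 to 0.11 when single arrays were left out. The number of members whose groups did not overlap was 2 after median centring, and 4 to 7 when single arrays were left out, with 7 without mTORi-HDL 2. Fewer arrays separate more often: the share of all genes so separated upward was 5.37% over all arrays, 4.23% after median centring and 12.8% without mTORi-HDL 2. The cause was not tested. Deviations of same-numbered samples correlated at 0.14, 0.13 and -0.02 over genes, so not in every pair, and 4 of 6 samples correlated best with their own number, so the numbers were not taken as pairs. With the replicate block 0 members passed, and 4 had an unadjusted p under 0.05. This level was reached by 1183 of all genes with the block and 1029 without it.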
